A study of Mus musculus with 4 samples.

Results

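The collagen genes of the mouse trachea were taken as every measured gene whose symbol is Col, a number, the letter a and a number, without Col17a1. This gave 43 of the 33697 features. They were split by structural role into 8 fibrillar genes (Col1a1, Col1a2, Col3a1, Col5a1 to Col5a3, Col24a1, Col27a1), 7 cartilage genes (Col2a1, Col9a1 to Col9a3, Col10a1, Col11a1, Col11a2), 9 basement membrane genes (Col4a1 to Col4a6, Col7a1, Col15a1, Col18a1) and 6 beaded filament genes (Col6a1 to Col6a6). The rest were 6 fibril-associated genes (Col12a1, Col14a1, Col16a1, Col19a1, Col20a1, Col22a1), 2 network genes (Col8a1, Col8a2), 3 transmembrane genes (Col13a1, Col23a1, Col25a1) and 2 others (Col26a1, Col28a1). Single-cell RNA of 4 libraries was used, 1 from dorsal and 1 from ventral trachea of control mice and the same of knockout mice. All mice carried P63-CreER, Ki67-lsl-Dre and Rosa26-rsr-GFP and received tamoxifen. Controls were Ctnnb1-fl/+, with 1 floxed allele, and knockouts were Ctnnb1-fl/fl, with 2. Tissue was taken after 10 days and dissociated with papain. Cre is driven from P63, a gene of basal cells, so Ctnnb1, which encodes beta-catenin, is meant to be lost in basal cells and not in the fibroblasts and chondrocytes that express most collagen. The sources used here do not give the age of the mice or how many made up a library.

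Collagens are triple helices of 3 chains that are hydroxylated and folded in the endoplasmic reticulum, secreted, and cross-linked outside the cell. Fibrillar collagens form the tensile fibres of connective tissue, type VI forms fine filaments around cells, type IV forms the sheet of basement membranes, and type II with types IX and XI forms the fibrils of hyaline cartilage. In the trachea, cartilage rings hold the ventral and lateral wall open, while the dorsal wall is a band of smooth muscle and connective tissue without cartilage.

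Starts of 34 of the 43 genes were found in RefSeq's promoter table (GRCm38.p6; the deposited counts use GRCm39, so these coordinates serve only to locate the sequences). The 250 bases before the start are shown for 4 genes that the results turn on and whose window holds no annotated exon. Col3a1 had the lowest ratio of knockout to control among the named fibroblast members, Col23a1 was higher ventrally in fibroblasts, and Col10a1 and Col11a2 were higher ventrally in chondrocytes. Each is written 5′ to 3′ on the strand of its gene, which is the plus strand for all 4, and capitals mark a TATAAA. The windows are chr1:45311288-45311537, chr10:34389731-34389980, chr17:34038888-34039137 and chr11:51289670-51289919.
Col3a1: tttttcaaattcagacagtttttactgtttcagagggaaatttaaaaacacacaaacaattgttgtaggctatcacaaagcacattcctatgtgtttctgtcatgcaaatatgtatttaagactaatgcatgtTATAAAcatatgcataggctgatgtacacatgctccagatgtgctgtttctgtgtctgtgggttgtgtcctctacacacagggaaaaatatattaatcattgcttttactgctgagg
Col10a1: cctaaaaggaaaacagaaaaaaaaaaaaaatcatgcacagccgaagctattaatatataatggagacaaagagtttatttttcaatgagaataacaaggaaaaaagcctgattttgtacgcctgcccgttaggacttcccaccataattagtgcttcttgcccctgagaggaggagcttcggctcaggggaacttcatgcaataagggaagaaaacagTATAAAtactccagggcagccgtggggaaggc
Col11a2: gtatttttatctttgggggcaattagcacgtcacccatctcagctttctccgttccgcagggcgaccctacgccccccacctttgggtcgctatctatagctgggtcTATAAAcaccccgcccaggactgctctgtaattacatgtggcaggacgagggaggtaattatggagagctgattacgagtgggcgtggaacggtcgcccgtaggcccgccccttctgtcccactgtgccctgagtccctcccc
Col23a1: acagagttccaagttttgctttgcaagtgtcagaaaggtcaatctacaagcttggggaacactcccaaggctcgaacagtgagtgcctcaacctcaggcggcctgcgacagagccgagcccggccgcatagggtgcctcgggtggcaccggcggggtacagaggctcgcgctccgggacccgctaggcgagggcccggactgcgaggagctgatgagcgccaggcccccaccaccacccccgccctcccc
The motifs searched on both strands were the TATA box as TATAAA, the CAAT box as CCAAT, a SOX-type site as AACAATG and a TCF/LEF-type site as TTCAAAG. The first stood 32 bases before the Col10a1 start, 117 before the Col3a1 start and 143 before the Col11a2 start, and no motif was found in the Col23a1 window. Over all 34 genes, TATAAA was in a window of 4, CCAAT of 12, TTCAAAG of 4 and AACAATG of 0. Of all 32851 windows of this length in the table, 12.4% held TATAAA, 33.8% CCAAT, 4.46% TTCAAAG and 3.29% AACAATG. The type IV genes lie in head-to-head pairs: the starts of Col4a1 and Col4a2 on chromosome 8 face away from each other with an overlap of 22 bases, and those of Col4a6 and Col4a5 on chromosome X lie 1343 bases apart.

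Values below are CPM, the UMIs of a gene summed over the cells of a class and divided by all UMIs of that class, per 1000000. Sets of 4 values are always in the order control dorsal, control ventral, knockout dorsal, knockout ventral. Each kit UMI tags 1 end of an RNA molecule, so no division by length was made and genes are compared with themselves across libraries and classes rather than ranked. With 1 library a group there is no replicate and no test between groups. Every interval is a 95% interval that covers counting error only, and dissection, mouse and library cannot be told apart from region or genotype.

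After filtering, 12506, 9309, 6018 and 6520 cells remained, with a median of 10902 to 14544.5 UMIs per barcode before filtering. Pairs of libraries shared 15 to 39 barcodes. Fibroblasts (at least 1 UMI of Col1a2 or Dcn, Epcam and Acan at 0) numbered 2147, 1884, 1904 and 1719, and 90.1% to 96.5% of them had at least 3 of 6 other fibroblast markers. Chondrocytes (at least 3 UMIs of Acan, Hapln1 and Matn3 together) numbered 247, 399, 30 and 194, with 93.5% to 96.7% carrying at least 3 of 6 other chondrocyte markers. Basal cells (Trp63 and Krt5) numbered 2563, 1059, 1175 and 585, with 98.8% to 100% carrying at least 3 basal markers. Of the Pecam1-positive cells described next, 33% to 77.9% also carried at least 3 basal markers. A stricter basal gate, which asked for at least 2 UMIs of each gate gene, kept 355, 90, 148 and 77 cells. The fourth class of the rule was Pecam1-positive cells, of which 42.8% to 55% also met another gate and were left out. The rest (647, 1386, 795 and 967) went against the endothelial label, since 56.9% to 89.3% had at least 3 epithelial markers and only 4.03% to 25.6% had at least 3 of 6 endothelial markers. Endothelial values are therefore from a stricter class, chosen after the data were seen, of Pecam1-positive cells with at least 3 of 10 endothelial and lymphatic markers and no Epcam or Ptprc (81, 356, 37 and 299 cells). Unlike in the other classes, cells that also met another gate were kept in this class. Ctnnb1 in basal cells was 279.7, 287.3, 203.9 and 230.2 CPM, and in fibroblasts it was 123.7, 147.3, 91.1 and 123.3 CPM. Which exons were deleted is not stated in these sources, so the UMIs may come from outside them.

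Of the 43 genes, 33 reached 20 CPM with 50 UMIs in at least 1 library of fibroblasts, chondrocytes, basal cells or endothelial cells. In every library, 16 of these 33 were highest in fibroblasts, 12 in chondrocytes and 3 in endothelial cells, and for Col6a3 and Col16a1 the highest class differed between libraries. Col24a1, Col7a1, Col6a4, Col6a5, Col19a1, Col20a1, Col22a1, Col8a2, Col26a1 and Col28a1 did not reach the level in any of these classes. The closest were Col7a1, the anchoring fibril collagen, at 14.9, 17.1, 12.5 and 17.9 CPM in basal cells, and Col20a1 at 7.64 to 15 CPM in chondrocytes. Cells that are not known as collagen producers were set beside these classes. Leukocytes (198 to 274 cells) had at least 2 UMIs of Ptprc, no Epcam, Pecam1, Dcn or Acan, and met none of the class gates. This left out every cell with a Col1a2 UMI, so the absence of Col1a2 there was fixed by the gate. Low levels of the other fibroblast collagens may be partly fixed by it too. Col14a1 reached 16.7 to 47.5 CPM in leukocytes, against 350 to 732 CPM in fibroblasts, and every other member stayed below 10 CPM. In ciliated cells (Foxj1 and Epcam, 243 to 1549 cells), Col27a1 was at 9.96 to 31.6 CPM, against 32.4 to 55.7 CPM in fibroblasts, and Col4a5 at 16.6 to 29.4 CPM, against 39.7 to 52.9 CPM in basal cells. These 2 genes therefore reached 20 CPM in cells that met none of the 4 gates. Those cells were mixed: 36% to 68.8% had at least 3 of 4 ciliated markers and 34.5% to 68.9% at least 3 of 6 basal markers. The part of basal-like cells in these levels, and whether the levels are expression or free RNA, was not tested.

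**Figure D1:**
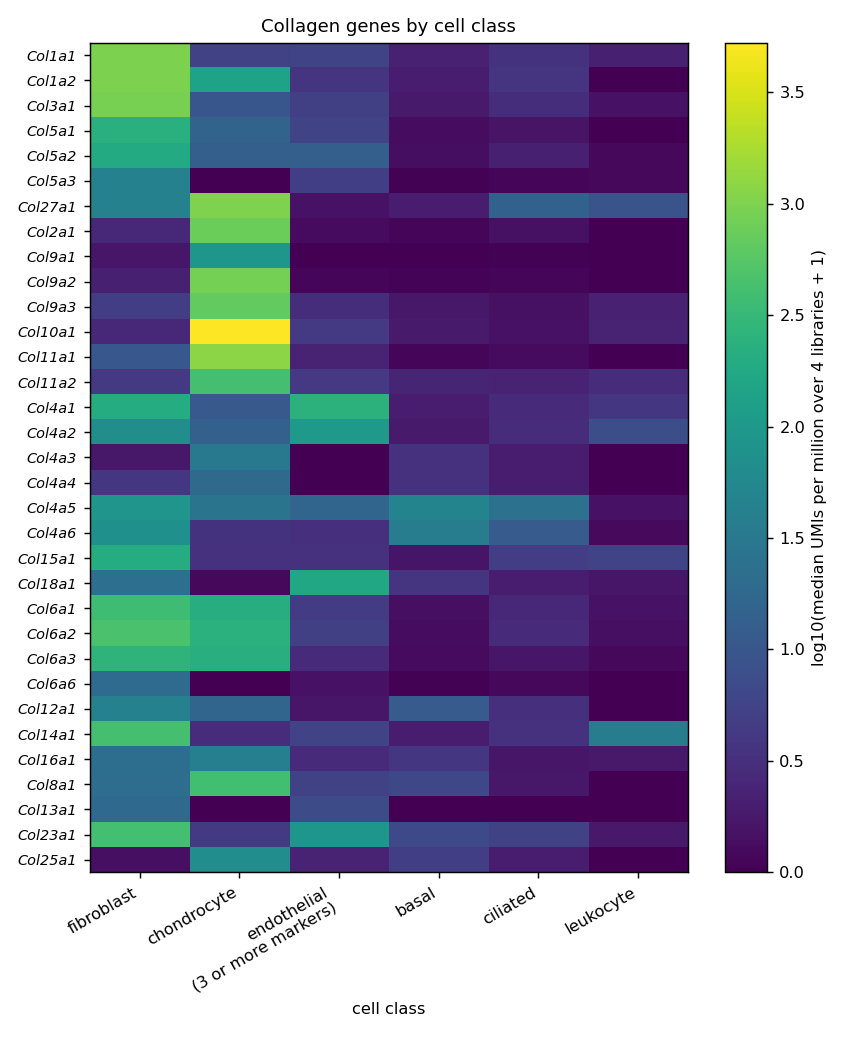
Median level of the 33 collagen genes over the 4 libraries (colour, log10 of CPM plus 1) by cell class (columns); rows are grouped by structural role. The cartilage rows are bright in chondrocytes alone, most fibrillar and beaded filament rows in fibroblasts, and Col4a1, Col4a2 and Col18a1 in endothelial cells as well. Col6a1, Col6a2 and Col6a3 are bright in chondrocytes too, with medians of 208.2, 237.7 and 220.9 CPM.

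In fibroblasts, collagens together took 9696, 8232, 3904 and 4206 CPM, or 0.97%, 0.823%, 0.39% and 0.421% of UMIs. Both knockout libraries lay below both control libraries. The fibrillar genes alone summed to 5476, 4754, 1840 and 1933 CPM. Col1a1, a chain of type I collagen, the main fibre of most connective tissue, was at 1507, 1442, 437.5 and 531.8 CPM. The controls differed little from each other and knockout over control was 0.290 (0.283 to 0.297) for the dorsal pair and 0.369 (0.360 to 0.378) for the ventral pair. Col1a2, its partner chain, was at 1476, 1352, 607.8 and 544.5 CPM, with ratios of 0.412 (0.403 to 0.421) and 0.403 (0.393 to 0.413). Col1a2 helps to select these cells. With a gate of at least 3 Dcn UMIs in its place, it stood at 1512, 1522, 607.1 and 558.1 CPM. Col3a1, the type III chain that co-assembles with type I in extensible tissue, was at 1789, 1370, 455.4 and 470.3 CPM, the lowest ratios of these 3 genes at 0.255 (0.249 to 0.261) dorsally and 0.343 (0.335 to 0.352) ventrally. Thinned to 5000 UMIs a cell, the median fibroblast held 6, 5, 2 and 2 UMIs of Col1a1, and 4.17%, 9.53%, 20.5% and 19.2% of cells held none.

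The minor fibrillar genes did not all follow this order. Col5a1 and Col5a2 encode the type V chains that sit in the core of type I fibrils and set their diameter. Col5a1 was at 312.4, 274.4, 118 and 182.8 CPM, lowest in the knockout dorsal library. Col5a2 was at 264.8, 222.5, 136 and 152 CPM. Col5a3, the third type V chain, was at 74.9, 34 (control ventral), 50.7 and 16.1 CPM, so that each dorsal library exceeded both ventral ones, with dorsal over ventral at 2.20 (2.01 to 2.42) in controls against 3.15 (2.74 to 3.62) in knockouts. Col27a1 was at 51.3, 55.7, 34 and 32.4 CPM and did not differ between regions beyond counting error. Col24a1 was at most 3.84 CPM.

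Type VI collagen, the beaded filament around fibroblasts, was highest in the control dorsal library for its 3 main chains. Col6a1 was at 645.9, 454.1, 288.4 and 281.3 CPM, Col6a2 at 911.2, 553.6, 358.9 and 320 CPM and Col6a3 at 484.7, 307, 213.3 and 175.3 CPM. Control dorsal fibroblasts exceeded control ventral ones by 1.65-fold (1.61 to 1.69) for Col6a2 and 1.58-fold (1.53 to 1.63) for Col6a3. Between the knockout libraries these ratios were 1.12 (1.08 to 1.16) and 1.22 (1.16 to 1.28), and the control ratios were not above 1 in every subset of fibroblasts, as given with the subsets. Col6a3 kept a near constant proportion to Col6a2 in fibroblasts, at 0.532, 0.555, 0.594 and 0.548 UMIs of Col6a3 for each of Col6a2. Col6a6 was at 24.7, 30.1, 7.23 and 13.9 CPM, and Col6a4 and Col6a5 did not pass 1.04 CPM.

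**Figure D2:**
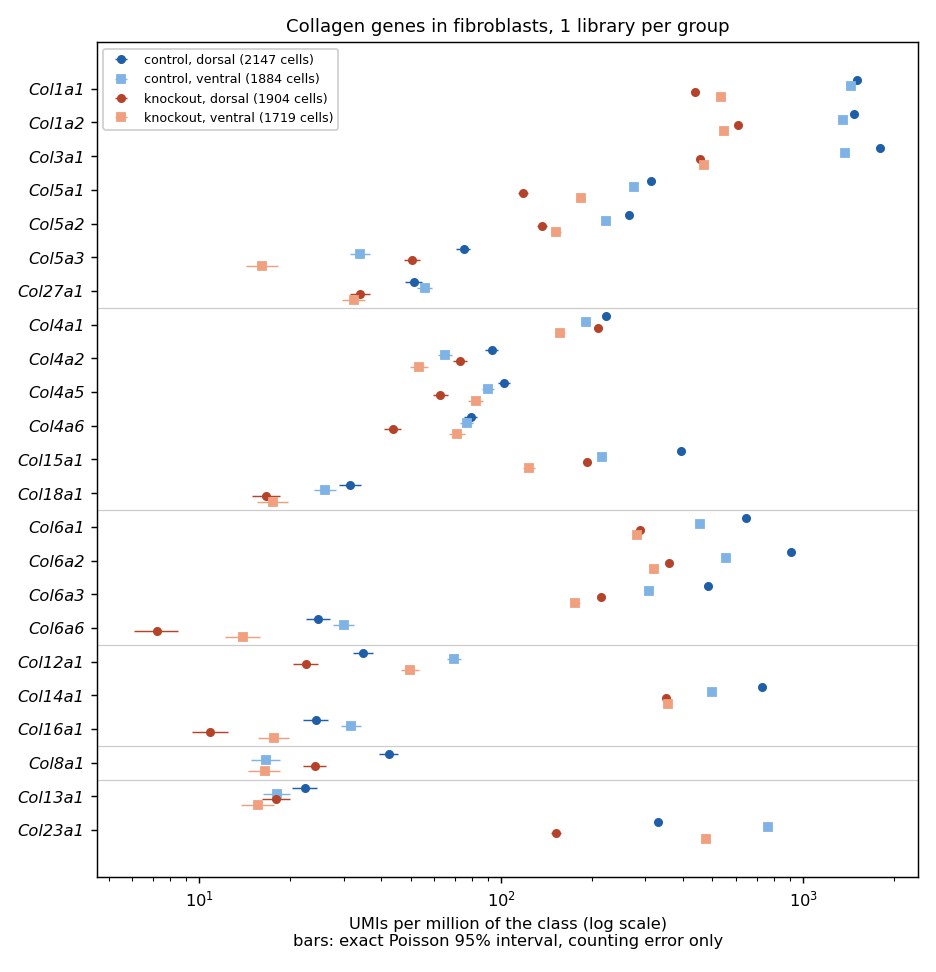
Levels in fibroblasts of the 23 collagen genes that reached 20 CPM with 50 UMIs (CPM, log axis; 1 point per library, bars give the exact Poisson 95% interval). The knockout points (red) lie left of the control points (blue) for Col1a1, Col1a2 and Col3a1, whereas the Col4a1 points lie between 156 and 222.5 CPM and the ventral squares of Col23a1 lie right of the dorsal circle of the same genotype.

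The fibril-associated genes encode collagens that coat fibrils and link them to other matrix. Col14a1 was at 732.1, 498.8, 350.4 and 355.5 CPM. Col12a1 had the opposite regional order at 34.8, 69.9, 22.4 and 49.9 CPM, each ventral library being above both dorsal ones, with dorsal over ventral at 0.498 (0.453 to 0.548) in controls and 0.450 (0.40 to 0.506) in knockouts. Col16a1 was at 24.3, 31.8, 10.9 and 17.6 CPM.

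Among basement membrane genes, Col4a1 and Col4a2 encode the chains of the general type IV network. Col4a1 differed least between libraries. It was at 222.5, 190.9, 209.6 and 156 CPM, with knockout over control at 0.942 (0.902 to 0.984) dorsally and 0.817 (0.777 to 0.860) ventrally. Col4a2 was at 92.8, 65, 72.8 and 53.5 CPM, with ratios of 0.784 (0.731 to 0.842) and 0.823 (0.754 to 0.897). The chains of the second network, Col4a5 and Col4a6, were at 102.3, 90.4, 62.8 and 82.1 CPM and at 79.1, 76.8, 43.6 and 71.3 CPM. For both, the knockout dorsal library was lower than the other 3. Col15a1, the collagen that anchors basement membrane to the fibrils beneath, was at 393.3, 215.6, 192.5 and 123.6 CPM, 1.82-fold (1.76 to 1.90) higher dorsally among controls and by 1.56-fold (1.47 to 1.64) among knockouts, though not in every subset. Col18a1, the source of endostatin, was at 31.5, 26.1, 16.6 and 17.5 CPM.

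The transmembrane collagen Col23a1 was at 331.2, 762.4, 151.8 and 474.6 CPM. Each ventral library exceeded both dorsal libraries. Dorsal over ventral was 0.434 (0.422 to 0.448) in controls and 0.320 (0.307 to 0.334) in knockouts. It was unevenly spread over cells: after thinning, 60%, 40.8%, 71% and 48.2% of fibroblasts held no UMI, while the 90th percentile was 6, 11, 3 and 7 UMIs. Col13a1, another transmembrane collagen, was at 22.3, 18, 17.9 and 15.6 CPM. Col8a1, a short chain of hexagonal networks, was at 42.3, 16.6, 24.1 and 16.4 CPM, highest in the control dorsal library.

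Between the control regions, 17 of 35 collagens compared in fibroblasts (at least 20 UMIs in 1 library) were past 1.5-fold, 7 higher and 10 lower dorsally, against 22% of all 15383 genes (4.81% higher, 17.2% lower). Their median log2 ratio was 0.13, against -0.09 for all genes compared. In knockouts, 15 of 33 were past this fold, 2 higher and 13 lower dorsally, against 33.8% of all genes (4.56% higher, 29.3% lower), with medians of -0.28 and -0.25. Of the genes lower dorsally, 5 in each genotype were cartilage genes at no more than 14.4 CPM in any fibroblast library. The summed level of 6 chondrocyte markers in fibroblasts was 137, 133, 60.5 and 104 CPM, and that of 5 smooth muscle markers was 389, 88.4, 54.2 and 76.8 CPM, each list with at most 1 marker at 0. The part of these cells or of their free RNA in the regional ratios was not tested.

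Between genotypes the direction was uniform in fibroblasts. Dorsally, 29 of 34 collagens were past 1.5-fold lower in the knockout and 0 higher, against 32.4% of all 14585 genes past the fold (7.65% higher, 24.8% lower). Ventrally, 20 of 34 were past it, again lower, against 13.2% (4.44% higher, 8.74% lower). The median log2 ratio of the collagens was -1.06 dorsally and -0.66 ventrally, against -0.18 and 0.01 for all genes compared. The 5 that stayed within 1.5-fold dorsally, named here after their values were seen, were Col5a3, Col4a1, Col4a2, Col20a1 and Col13a1. Each structural role with more than 1 gene compared had a negative median in both regions, from -2.13 (cartilage genes, at 5.81 CPM or less) to -0.85 (fibril-associated) dorsally, and from -0.93 (fibrillar) to -0.33 (network) ventrally. The same knockout library, and the same control, enter several of these ratios, so they are not independent of one another.

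**Figure D3:**
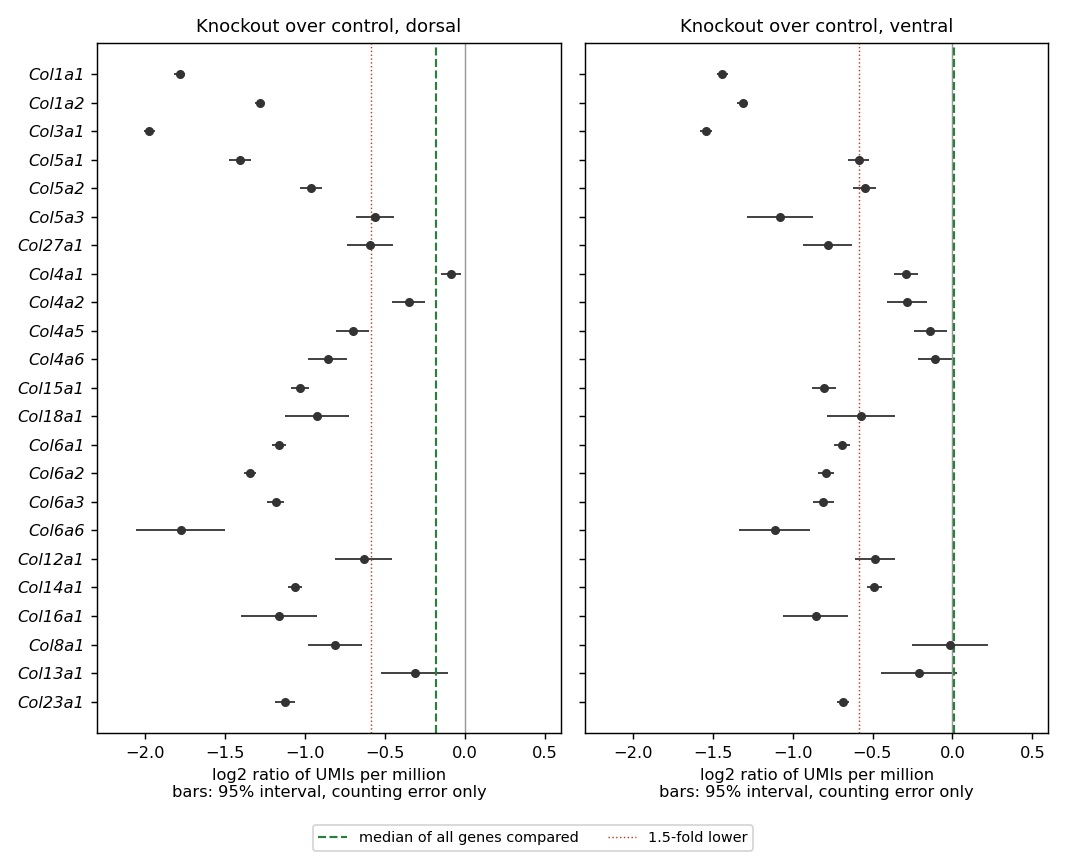
Knockout over control in fibroblasts (log2 ratio of CPM with 95% counting interval) for the 23 named collagen genes, dorsal on the left and ventral on the right. The dashed line is the median of all genes compared (-0.18 and 0.01) and the dotted line is 1.5-fold lower; Col1a1, Col1a2 and Col3a1 lie left of the dotted line in both panels and Col4a1 right of it in both.

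Other properties moved with the genotype in the dorsal pair. Ribosomal protein genes took 14.5% of fibroblast UMIs in the knockout dorsal library, against 10.2% to 11.1% in the other 3. Long transcripts were lower there: genes of 5000 to 7000 bases had a median log2 ratio of -0.40 dorsally and -0.05 ventrally, and the collagens in that range, whose transcripts have a median of 6048 bases over all 43 genes, had -1.03 and -0.56. Genes under 2000 bases had 0.14 and 0.05. Markers of other cells moved with the genotype too, smooth muscle markers summing to 389 CPM in the control dorsal and 54.2 CPM in the knockout dorsal fibroblasts, and chondrocyte markers to 137 and 60.5 CPM. The part of these properties in the ratios was not tested beyond these values. Scaling by the median of ratios in place of total UMIs shifted every dorsal log2 ratio by 0.16, which put Col4a1 slightly above the control there, and every ventral one by -0.03. The same scaling shifted the dorsal over ventral log2 ratios by 0.03 in controls and 0.19 in knockouts.

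The genes that make and process collagen showed the difference less evenly. The counts of these lists stand against 24.8% of all genes lower and 7.65% higher dorsally, and 8.74% lower and 4.44% higher ventrally. Of 30 biosynthesis genes compared in fibroblasts, 15 were past 1.5-fold lower dorsally and 0 higher, with a median log2 ratio of -0.57, while ventrally 1 was lower (P3h2, at 2.44 CPM or less) and the median was -0.17. Serpinh1, the chaperone HSP47 that binds the folded triple helix, was at 1244, 850, 915.5 and 893.6 CPM, so that the knockout exceeded the control slightly ventrally at 1.05 (1.03 to 1.07). P4ha1, a prolyl hydroxylase subunit, was at 150, 131.6, 139.5 and 158.6 CPM. Loxl1, a cross-linking oxidase, was at 244, 183.9, 107.8 and 125.5 CPM. Lox, the founding member of that family, had another pattern, at 48.4, 123.9, 54.5 and 169.7 CPM, each ventral library above both dorsal ones and the knockout ventral library above the control by 1.37-fold (1.30 to 1.45). Of the turnover genes, 5 of 11 were past the fold dorsally (1 higher, 4 lower) and 2 of 11 ventrally (both lower). Those 2 were Mmp2, a gelatinase, at 771.7, 593.7, 309.6 and 360.3 CPM, and Ctsk, a collagen-degrading cathepsin, at 345, 215.5, 174.4 and 122.2 CPM. Of the collagen receptors, 4 of 7 were lower dorsally and 1 of 8 ventrally, and Ddr2, a receptor kinase for fibrillar collagen, was at 219.8, 225.7, 128.4 and 215 CPM. Of the laminins and other basement membrane partners, 6 of 14 were lower dorsally and 2 of 15 ventrally (Nid2 and Hspg2), the ventral counts of both lists lying near the share of all genes, and Lamb1, a laminin chain, was at 237.3, 168.9, 233.9 and 223.6 CPM. Of the cartilage matrix and regulator genes, 9 of 10 were lower and 1 (Prg4, which encodes lubricin) higher dorsally, and 4 of 11 were lower ventrally.

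Fibroblasts are not of 1 kind, and the levels were taken again within subsets defined by markers other than collagens. In adventitial-type cells (833, 821, 606 and 742), Col1a1 was at 1471, 1027, 452.4 and 505 CPM and Col3a1 at 1647, 949.6, 440.4 and 444.1 CPM. Both knockouts again lay below both controls, and the ventral ratio for Col1a1 was 0.492 (0.474 to 0.510) here against 0.369 over all fibroblasts. Col12a1 in these cells was at 22.7, 22.3, 15.2 and 13.5 CPM, without the ventral excess, whereas Col23a1 kept it at 358.8, 912.8, 165.3 and 674.5 CPM. In perichondrial-type cells (80, 142, 62 and 172), which are chosen in part by Prg4, a gene that was itself at 438.2, 609.3, 802.9 and 902.9 CPM in fibroblasts, Col1a1 was at 1514, 3819, 340.3 and 704.7 CPM, so that here the control ventral library was highest, and Col12a1 was at 59.4, 250.3, 26.5 and 195.2 CPM. The dorsal excess of type VI and type XV collagen in controls was not found in every subset. Dorsal over ventral for Col6a2 in controls was 1.67 (1.6 to 1.73) in adventitial-type cells, 0.934 (0.796 to 1.09) in perichondrial-type cells and 0.904 (0.838 to 0.974) in cells without a subset marker (332 dorsal and 526 ventral). For Col6a3 it was 1.44 (1.36 to 1.51), 0.986 (0.774 to 1.25) and 0.960 (0.872 to 1.06). For Col15a1 it was 1.69 (1.59 to 1.78), 1.52 (1.06 to 2.15) and 0.823 (0.723 to 0.934), so that cells without a subset marker had the opposite order, while in knockouts they had 1.08 (0.895 to 1.30). A further subset, dorsal-type cells (Lrat or Bmp5), held only 58, 22, 66 and 9 cells. Its control ratios were 1.134 (0.9656 to 1.335) for Col6a2, 1.449 (1.154 to 1.832) for Col6a3 and 3.124 (2.212 to 4.523) for Col15a1. In knockouts, adventitial-type cells had 0.883 (0.832 to 0.938) for Col6a2 and 1.13 (1.04 to 1.23) for Col15a1. Col4a1 differed little within the adventitial-type and perichondrial-type subsets, at 216.6, 218.5, 185.3 and 189.5 CPM in adventitial-type cells and at 90.3, 69.1, 94.1 and 79.1 CPM in perichondrial-type cells.

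In chondrocytes, the cartilage genes were led by Col10a1, the network collagen of hypertrophic cartilage, at 3923, 8208, 3523 and 6627 CPM. Each ventral library was above both dorsal ones, with dorsal over ventral at 0.478 (0.469 to 0.487) in controls and 0.532 (0.509 to 0.555) in knockouts, and knockout over control at 0.898 (0.859 to 0.939) dorsally and 0.808 (0.795 to 0.820) ventrally. Col2a1, the main fibrillar collagen of cartilage, was at 921.6, 2372, 285.9 and 601.3 CPM. It was higher ventrally in both genotypes and lower in the knockout in both regions, at 0.310 (0.266 to 0.360) and 0.254 (0.242 to 0.265) of the control. The ratio of Col10a1 to Col2a1 UMIs was thus 4.26, 3.46, 12.3 and 11, higher in each knockout library than in either control. After thinning, 71.1%, 84.9%, 55.6% and 68.8% of chondrocytes held a Col2a1 UMI and 59.2%, 61.4%, 81.5% and 67.1% a Col10a1 UMI. The knockout dorsal library holds only 30 chondrocytes (27 after thinning), and its 95% interval for Col10a1 ran from 61.9% to 93.7%.

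Col9a2 was at 998.5, 1117, 529 and 735.9 CPM and Col9a3 at 797, 869.5, 376.1 and 552.1 CPM. These chains of type IX collagen, which decorates type II fibrils, held to 1.25, 1.28, 1.41 and 1.33 UMIs of Col9a2 for each of Col9a3. Col9a1, the third chain, was at 127.6, 188.6, 53.5 and 58.6 CPM. Col11a1 and Col11a2, chains of the fibril core, parted: Col11a1 was at 1338, 1319, 879.1 and 1056 CPM, while Col11a2 was at 433.4, 836.6, 214 and 393.5 CPM, with dorsal over ventral at 0.518 (0.489 to 0.549) in controls. All 7 cartilage genes were lower in the knockout than in the control of the same region, 6 of 7 past 1.5-fold dorsally and 5 of 7 ventrally. Of all genes compared, 28% were past this fold lower dorsally and 12% ventrally. The dorsal count rests on the 30 chondrocytes of the knockout library.

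Chondrocytes also carried collagens of other roles. Col27a1, a fibrillar collagen of cartilage, was at 1033, 1143, 938.7 and 944.5 CPM, against 32.4 to 55.7 CPM in fibroblasts, and varied least among the abundant genes. Col8a1 was at 776.2, 416.7, 308.8 and 359.5 CPM, highest in the control dorsal library as in fibroblasts. Col25a1, a transmembrane collagen, was at 65.9, 72.9, 21.4 and 66.9 CPM and at 1.70 CPM or less in fibroblasts. Col4a3 and Col4a4, chains of the specialised type IV network of kidney and lung, were at 15.5, 36.8, 24.5 and 38.1 CPM and at 9.84, 21.1, 16.8 and 19.6 CPM, above their levels in the other 3 classes in every library. Col6a3 was at 269.5, 348.9, 81.0 and 172.4 CPM, and its proportion to Col6a2 was 0.977, 1.25, 0.631 and 0.863.

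The UMIs of type I collagen genes in chondrocytes were nearly all from Col1a2. Col1a2 was at 162.7, 252.8, 122.3 and 56.9 CPM, while Col1a1 was at 13.7, 7.13, 0 and 1.66 CPM (in the knockout dorsal library 3 UMIs, the limit for a count of 0, would be 4.59 CPM). For each UMI of Col1a2 there were 0.0843 (0.0610 to 0.114), 0.0282 (0.0209 to 0.0373), 0 (up to 0.0472) and 0.0291 (0.0106 to 0.0645) of Col1a1, against 1.02, 1.07, 0.720 and 0.977 in fibroblasts of the same libraries. In ciliated cells, which are not known to make type I collagen, this proportion was 0.813, 1.11, 0.5 and 1. That class is mixed, since 34.5% to 68.9% of its cells had at least 3 basal markers. Whether the type I UMIs in either class are free RNA was not tested. Cells that met both gates were left out. When they were kept, chondrocyte Col1a2 was at 158.5, 277.5, 101.2 and 62.6 CPM and Col1a1 at 19.8, 18.7, 4.60 and 4.91 CPM. Dorsal over ventral for Col1a2 was 0.644 (0.584 to 0.709) in controls and 2.15 (1.64 to 2.80) in knockouts.

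**Figure D4:**
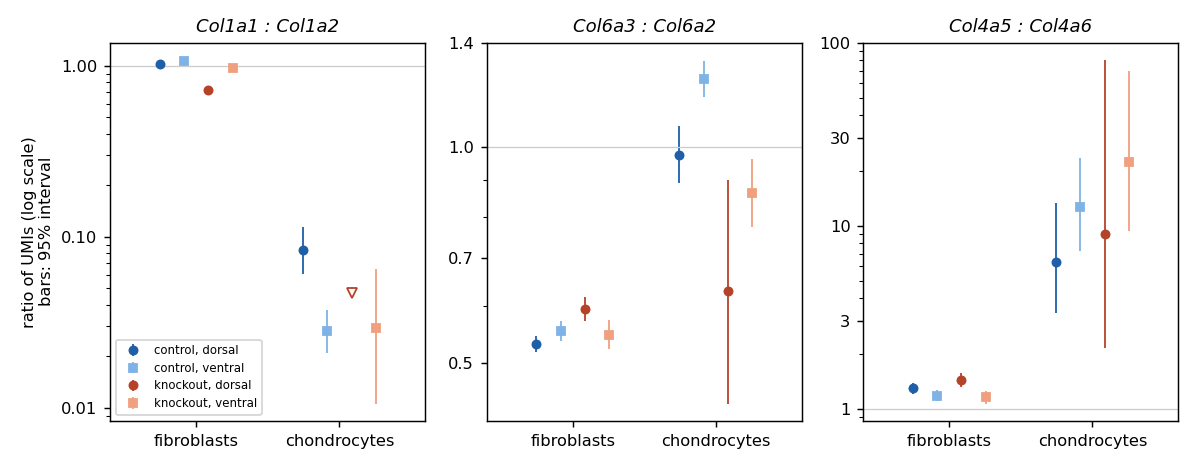
Ratio of UMIs of 2 chains of the same collagen type (log axis, 95% interval) in fibroblasts and chondrocytes, 1 point per library; the open triangle is the upper bound of a library without a Col1a1 UMI. Col1a1 and Col1a2 are near equal in fibroblasts (0.720 to 1.07) and unequal in chondrocytes (0.0843 or less), and Col4a5 exceeds Col4a6 by 1.15 to 1.44 in fibroblasts and by 6.36 to 22.4 in chondrocytes.

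Between control regions, 15 of 31 collagens compared in chondrocytes were past 1.5-fold (6 higher, 9 lower dorsally), against 22.6% of all genes (7.53% higher, 15.1% lower). Between knockout regions the count was 12 of 26 (1 higher, 11 lower), against 37% (8.62% higher, 28.4% lower). Knockout over control gave 23 of 28 dorsally (2 higher, 21 lower), against 36.3% (8.3% higher, 28% lower), and 19 of 30 ventrally, all lower, against 18.7% (6.72% higher, 12% lower). The median log2 ratios of the collagens were -1.16 dorsally and -0.70 ventrally, against -0.15 and -0.05 for all genes compared. The 2 higher dorsally were Col4a3 and Col4a4, at 1.58 (0.841 to 2.81) and 1.71 (0.780 to 3.47), whose intervals include no difference. Of 28 and 30 biosynthesis genes compared, 14 and 7 were lower in the knockout and 1 in each region was higher. Of 11 cartilage matrix and regulator genes, 4 were lower and 2 higher dorsally, and 1 was lower and 1 higher ventrally, with median log2 ratios of -0.42 and -0.17. Ribosomal protein genes took 13.8% of chondrocyte UMIs in the knockout dorsal library, against 9.17% to 10.9% in the others. Genes of 7000 bases or more had a median log2 ratio of knockout over control of -0.38 dorsally and -0.18 ventrally. Collagens of that length had -0.61 and -0.40. The part of these properties in the chondrocyte ratios was not tested.

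**Figure D5:**
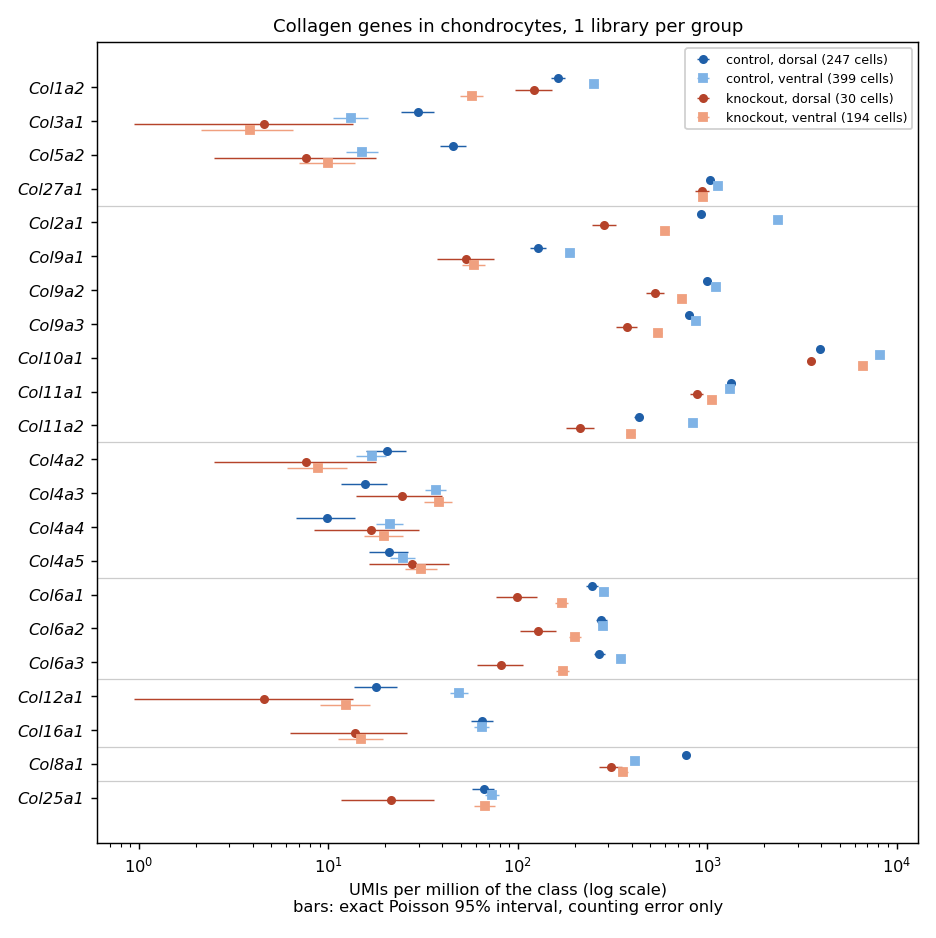
Levels in chondrocytes of the 22 collagen genes that reached 20 CPM with 50 UMIs (CPM, log axis; 1 point per library, bars give the exact Poisson 95% interval). The ventral squares of Col10a1 lie at 8208 and 6627 CPM, right of the dorsal circles at 3923 and 3523 CPM, the Col27a1 points nearly coincide, and the wide bars belong to the 30 cells of the knockout dorsal library.

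Basal cells, in which Ctnnb1 was targeted, held 152, 178, 122 and 169 CPM of collagen in all. Only Col4a5 and Col4a6 reached 20 CPM there, at 52.9, 43.8, 39.7 and 50.1 CPM and at 40.0, 35.3, 35.8 and 36.8 CPM. Their proportion was 1.32, 1.24, 1.11 and 1.36, close to that in fibroblasts, while Col4a1 and Col4a2, the general type IV chains, stayed at 1.94 CPM or less. Knockout over control for Col4a5 was 0.751 (0.70 to 0.805) dorsally and 1.14 (1.04 to 1.26) ventrally, both within 1.5-fold. Col7a1, given above, did not pass this fold in any comparison of basal cells. Col8a1 was at 1.44, 11.2, 1.05 and 9.28 CPM, higher ventrally in both genotypes, which is the reverse of its order in control fibroblasts and chondrocytes. These Col8a1 differences stayed past 1.5-fold in every other setting for control basal cells and control fibroblasts. They did not for knockout basal cells or control chondrocytes. Col12a1 was at 10.5, 19.8, 4.65 and 10.9 CPM and lower in the knockout at 0.441 (0.362 to 0.533) dorsally and 0.549 (0.455 to 0.660) ventrally. Past 1.5-fold were 17 of 27, 14 of 19, 10 of 25 and 13 of 23 collagens in the dorsal over ventral (controls, knockouts) and knockout over control (dorsal, ventral) comparisons, against 28.2%, 32.2%, 28.2% and 10.8% of all genes. Apart from Col4a5 and Col4a6 these counts concern genes under 20 CPM, and with a minimum of 50 UMIs they were 11, 8, 6 and 6. The number compared and the share of all genes at that minimum are not given here.

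Endothelial cells, which in all 4 libraries carried lymphatic markers (5 markers summing to 34285 to 43305 CPM), expressed basement membrane collagens. All of these lymphatic markers but Ccl21a were among the 10 that select the class, so their presence may be partly fixed by the gate. Col4a1 was at 294.3, 207.9, 285.7 and 211.2 CPM, Col4a2 at 103.7, 90.9, 136.5 and 85.3 CPM and Col18a1 at 231.8, 147.6, 190.5 and 127.5 CPM. For Col4a1 and Col18a1 both dorsal libraries lay above both ventral ones, by 1.42-fold (1.23 to 1.63) and 1.57-fold (1.33 to 1.84) in controls. Col23a1 was at 81.4, 62.3, 106.6 and 97.5 CPM, without the regional difference of fibroblasts, since both intervals of dorsal over ventral included 1. Summed fibroblast markers here were 126 to 300 CPM, against 6618 CPM or more in fibroblasts. Cells that also met the fibroblast gate were not left out of this class. Knockout over control was past 1.5-fold for 0 of 4 collagens dorsally, against 25.4% of all genes (9.3% higher, 16.1% lower), and for 9 of 15 ventrally (1 higher, 8 lower), against 13.9% (7.55% higher, 6.37% lower). The 8 lower genes were at no more than 19.6 CPM, and the 1 higher was Col23a1 at 1.57 (1.33 to 1.85). Dorsal over ventral gave 8 of 15 past the fold in controls (1 higher, 7 lower), against 21.8% (9.5% higher, 12.3% lower), and 4 of 7 in knockouts (3 higher, 1 lower), against 27.3% (8.69% higher, 18.6% lower). In the wider Pecam1-positive class, 24, 29, 20 and 27 collagens were past the fold, each out of at most 43. The order is dorsal over ventral (controls, knockouts), then knockout over control (dorsal, ventral). The shares of all genes were 30.2%, 37.7%, 30.1% and 20%. The number of collagens compared in this wider class is not given here, so its counts cannot be read against these shares. No collagen reached 20 CPM with 50 UMIs in every library of that class.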

How the data were processed

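The deposited files hold UMI counts per gene and barcode of 4 libraries made with the 10x GEM-X Single Cell 5′ v3 kit, per the labels' protocols, and Cell Ranger 10.0.0 and GRCm39 are named in the submitters' processing notes. The annotation release is not given in the sources used here. Barcodes under 500 detected genes or above 15% mitochondrial UMIs were dropped, and the barcodes with the highest Scrublet doublet score (scanpy 1.11.5) were removed at 0.4% per 1000 barcodes in each library, since its automatic calls were uneven. The libraries hold 286711618, 204278955, 161377683 and 144851737 UMIs. Cells were put in classes by the marker gates given with the results, and cells that met more than 1 gate were left out. In the same order of libraries, this removed 16.2%, 32.2%, 16.5% and 34.8% of cells in the fibroblast gate, a larger share ventrally. For chondrocytes it removed 9.52%, 12.5%, 6.25% and 18.8%, and for basal cells 3.06%, 18%, 18.6% and 29%. For Pecam1-positive cells it removed 42.8%, 45.5%, 44.5% and 55%. The endothelial class with at least 3 markers was not put under this rule and kept such cells. For each class of a library, the UMIs of a gene were summed and divided by all UMIs of the class.

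Levels carry exact Poisson intervals, ratios conditional binomial intervals and shares exact Clopper-Pearson intervals, all at 95% and for counting error only (Python 3.11.15, numpy 2.4.6, scipy 1.17.1, pandas 2.3.3, matplotlib 3.10.9). The interval script was tested on simulated data. A gene was compared where 1 of the 2 libraries had at least 20 UMIs, and was called past the fold at 1.5-fold either way. Members were named in a class where they reached 20 CPM and 50 UMIs in at least 1 library, and up to 10 members past the fold per direction by the interval bound nearest 1. The members, gene lists and marker lists were chosen with earlier results of these data known. Alternatives were doublets kept, cells in 2 gates kept, stricter gates, stricter cell filters, minimums of 50 and 1 UMI, a 2-fold limit, median-of-ratios size factors and the mean over cells. Leaving out cells with a Ptprc UMI and the endothelial class with at least 3 markers were added after seeing the data.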

Additional observations from a re-analysis of the deposited data

Results flagged for a closer look

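Col1a2 in chondrocytes went opposite ways between regions in the 2 genotypes: dorsal over ventral was 0.644 (0.584 to 0.709) in controls and 2.15 (1.64 to 2.80) in knockouts. The difference between the 2 ratios was not tested, since each rests on 1 library per group. The knockout dorsal library holds 30 chondrocytes with 80 UMIs of Col1a2, against 1808 in the control ventral library, and knockout over control was 0.752 (0.587 to 0.952) dorsally and 0.225 (0.194 to 0.26) ventrally. Fibroblast markers summed to 99.4 to 248 CPM in chondrocytes, and their part in the result was not tested. With at least 10 UMIs of the 3 gate genes required, chondrocyte Col1a2 was at 143.4 CPM dorsally and 261.1 CPM ventrally in controls, and at 120.8 CPM dorsally and 48.3 CPM ventrally in knockouts.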

How the results depend on the processing

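No paired analysis was possible because each group is 1 library. For the same reason no library could be left out. Of the 189 values of the class and comparison counts, 39 moved by more than 1.5 times and 150 did not. Of the 17, 15, 29 and 20 collagens past 1.5-fold in fibroblasts (dorsal over ventral in controls and in knockouts, knockout over control dorsally and ventrally), 13, 9, 25 and 15 stayed on the same side past the fold in every other setting run. In chondrocytes, 10, 9, 17 and 14 of 15, 12, 23 and 19 did so. Fewer held in basal cells, at 4, 0, 1 and 1 of 17, 14, 10 and 13. In Pecam1-positive cells, 4, 5, 12 and 5 of 24, 29, 20 and 27 held. The counts at other limits below are given without the number compared or the share of all genes at that limit. They show only how far a count moved. With a 2-fold limit these fibroblast counts were 9, not moved, 19 and 8, and those of chondrocytes 9, 7, not moved and 12. With 1 UMI as the minimum, the dorsal over ventral count in knockouts was 23 in fibroblasts and 20 in chondrocytes. In basal cells, whose counts concern low genes, the 4 counts (17, 14, 10 and 13) were 6, 2, 4 and 2 with at least 2 UMIs of each gate gene, 11, 8, 6 and 6 with a minimum of 50 UMIs, 31, 33, 21 and 26 with 1 UMI, and 10, 5, 6 and 5 at 2-fold. In Pecam1-positive cells (24, 29, 20 and 27) they were 14, 7, 13 and 15 with the stricter gate and 8, 4, 0 and 9 with at least 3 markers. The first was 12 at 2-fold, and the third was 33 with cells in 2 gates kept and 35 with 1 UMI. The number of collagens at 20 CPM in every library of this class, 0, was 9 with cells in 2 gates kept, 15 with the stricter gate, 1 by the mean over cells and 4 with at least 3 markers.

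Of the 575 values of single genes under the alternatives, 445 stayed within the counting interval of the reported value, 120 kept its direction but lay outside that interval, and 10 changed direction, 9 of them in Pecam1-positive cells. In log2, dorsal over ventral in controls was there 0.39 for Col23a1 with at least 3 markers, 0.05, 0.38 and 0.50 for Col4a1 (cells in 2 gates kept, stricter gate, at least 3 markers) and 0.04, 0.09 and 0.26 for Col1a1 (cells in 2 gates kept, stricter gate, doublets kept). Dorsal over ventral in knockouts was -0.01 for Col4a5 with cells in 2 gates kept, and knockout over control ventrally was 0.47 for Col3a1 with doublets kept. In chondrocytes, Col3a1 dorsal over ventral in controls was -0.21 with doublets kept. The cause was not tested. Depth limits the 30 chondrocytes and 37 endothelial cells of the knockout dorsal library and the collagens of basal cells under 20 CPM.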
